A study of Mus musculus with 2 samples.

Results

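Open chromatin between genes, away from start sites but within reach of a gene, was described in mouse spleen. The regions were DNase-seq peaks whose midpoint lay in no annotated gene body, over 1 kb from any annotated start site and under 50 kb from the nearest start of a protein-coding gene. Of 42454 peaks in replicate 1, 6934 met this rule, and of 60683 peaks in replicate 2, 10512 did. These are called members here. Their share was 16.3% (95% Wilson interval 15.98 to 16.69) and 17.3% (17.02 to 17.63), or 16.8% ± 0.700 (SD, n = 2).

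DNase I cuts nuclear DNA where it is free of nucleosomes, and sequencing the cut ends maps open chromatin. The data were 2 libraries of whole spleen from female B6CASTF1/J mice aged 36 days, first-generation hybrids of a C57BL/6 and a CAST parent, with no treatment named in the labels. They formed 1 group, and nothing other than replicates could be compared. The labels number 2 females but attach 1 donor entry to both, so the spread between libraries may be partly technical. Because spleen mixes lymphocytes, macrophages, red cell precursors and stroma, fewer open cells of a type and less opening per cell cannot be told apart. An exact permutation test over 2 paired libraries cannot go below a two-sided p of 0.5, so values are given per library, with intervals that cover counting error only. Total read depth was unknown. The longer peak list of replicate 2 and its 246700 footprints, against 133725 in replicate 1, show only that more was called there.

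Open regions between genes include enhancers, which bind transcription factors and raise transcription from a start site at a distance, and insulators bound by CTCF, a zinc finger protein that anchors chromatin loops. In blood cells distal open regions differ between cell types far more than promoters do. Factors known to act there are PU.1 in myeloid and B cells, EBF and E2A in B cells, RUNX proteins in most blood cells, GATA factors in red cell precursors, octamer binding proteins in lymphocytes, and complexes of an ETS protein with an interferon regulatory factor (IRF) in B cells and dendritic cells.

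The member with the highest signal is shown first, since it led both complete peak lists. It lay on the X chromosome, 35530 bases upstream of Pak3, which encodes a kinase of the cytoskeleton, with signals of 66.01 in replicate 1 and 58.09 in replicate 2. The letters are the mm10 (GRCm38) plus strand of chrX:143482981-143483140, and no motif searched here was found in its central 150 bases.
Pak3 upstream member: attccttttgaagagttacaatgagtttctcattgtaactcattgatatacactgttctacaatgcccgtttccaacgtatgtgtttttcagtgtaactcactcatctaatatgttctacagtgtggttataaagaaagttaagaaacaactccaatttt
Its central 150 bases had 33.3% G and C, against a mean of 53.0% and 52.6% over the members. Its central 31 bases occur 1 time in the assembly, and 30.7% of its centre was masked as repeat. The stretch resembles the minor satellite repeat of mouse centromeres, whose arrays are largely missing from the assembly. The single copy therefore does not show that its reads came from this site, and the part of satellite copies in the signal was not tested.

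The following stretches of 60 bases show, for CTCF and PU.1, the strongest shared members, that is members overlapping a peak of the other library, whose motif lay under a footprint in both. A footprint is a short stretch inside open chromatin that is protected from cutting. Capitals mark the motif, each stretch reads 5′ to 3′ on the strand that carries it, and the build is mm10.
CTCF, Wee1 member, chr7:110164953-110165012, plus strand: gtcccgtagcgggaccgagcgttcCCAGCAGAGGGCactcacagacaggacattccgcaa
CTCF, Olfr750 member, chr14:51064937-51064996, minus strand: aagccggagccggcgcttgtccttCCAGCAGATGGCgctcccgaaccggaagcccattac
PU.1, Cd52 member, chr4:134098835-134098894, minus strand: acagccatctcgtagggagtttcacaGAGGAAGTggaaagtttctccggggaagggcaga
PU.1, Osgin1 member, chr8:119423990-119424049, plus strand: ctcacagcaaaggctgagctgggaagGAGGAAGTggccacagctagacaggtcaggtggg
The Wee1 member lay 42905 bases downstream of the start of Wee1, a kinase that restrains entry into mitosis, with signals of 8.52 and 11.1. The Cd52 member lay 3729 bases upstream of Cd52, a surface glycoprotein of lymphocytes, with signals of 5.13 and 11.96. Both stood among the stronger peaks of each library. The Olfr750 member lay 6501 bases from the start of an olfactory receptor gene, and the Osgin1 member 13137 bases upstream of an oxidative stress response gene.

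Members chosen in the same way for RUNX, GATA and the octamer are shown next, because these motifs belong to blood cell factors.
RUNX, Mapkapk5 member, chr5:121564572-121564631, plus strand: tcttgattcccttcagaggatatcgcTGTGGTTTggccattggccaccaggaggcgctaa
RUNX, Mgst2 member, chr3:51652397-51652456, plus strand: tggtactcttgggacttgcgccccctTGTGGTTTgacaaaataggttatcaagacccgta
GATA, Foxj2 member, chr6:122804648-122804707, minus strand: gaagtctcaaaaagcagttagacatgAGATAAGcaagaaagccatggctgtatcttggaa
GATA, Lmo2 member, chr2:103945979-103946038, plus strand: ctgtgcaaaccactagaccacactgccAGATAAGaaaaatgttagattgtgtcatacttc
Octamer, Pth2 member, chr7:45182356-45182415, minus strand: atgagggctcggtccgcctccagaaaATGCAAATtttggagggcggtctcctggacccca
Octamer, Gm21887 member, chrX:170020052-170020111, plus strand: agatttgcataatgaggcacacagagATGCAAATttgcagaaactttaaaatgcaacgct
The Lmo2 member lay 12004 bases upstream of Lmo2, a partner of GATA factors in blood cell formation, with signals of 2.09 and 3.01. Of these members the octamer one near Pth2 lay closest to a coding start, at 1219 bases. Both RUNX stretches also hold letters like those of the CTCF motif. In the Mgst2 stretch these lie on the other strand and overlap the RUNX letters. Which factor gave a footprint was not tested.

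The motifs of EBF, E2A and the ETS-IRF composite complete the set, with 1 member for E2A.
EBF, Kcnn1 member, chr8:70865701-70865760, plus strand: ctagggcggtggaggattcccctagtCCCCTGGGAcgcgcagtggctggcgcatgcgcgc
EBF, Cirbp member, chr10:80159926-80159985, plus strand: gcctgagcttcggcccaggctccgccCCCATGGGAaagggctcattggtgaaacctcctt
E2A, S100a11 member, chr3:93506144-93506203, plus strand: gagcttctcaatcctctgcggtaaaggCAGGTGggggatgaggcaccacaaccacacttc
ETS-IRF, Ssc4d member, chr5:135957721-135957780, minus strand: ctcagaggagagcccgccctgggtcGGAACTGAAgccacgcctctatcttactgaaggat
ETS-IRF, Hdhd5 member, chr6:120567654-120567713, minus strand: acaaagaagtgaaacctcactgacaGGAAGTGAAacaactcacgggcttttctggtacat
The Hdhd5 member lay 36342 bases upstream of Hdhd5, with signals of 4.37 and 9.32. RefSeq annotates an enhancer active in mouse EL4 and human Jurkat T cells over it, from position 120566604 to 120567778 of chromosome 6.

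Members were of middle strength within each library. Peaks were ranked by the authors' signal value, whose scale is not given, and received a percentile rank from 0 for the weakest to 100. The median member stood at percentile 43.3 and 44.8 in replicates 1 and 2, a mean of 44.0 with an SD of 1.02 (n = 2). Peaks at promoters, within 1 kb of a coding start, stood at 74.8 and 76.7, intronic peaks at 38.02 and 41.33, and intergenic peaks 50 kb or more from a coding start at 27.7 and 30.3. In both libraries members thus lay below promoter peaks and above intronic and far intergenic peaks. Exonic peaks stood level with members, at 43.3 and 44.8. Intergenic peaks at starts of genes that are not protein-coding stood higher, at 50.72 and 48.85.

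Few members were among the strongest peaks. They supplied 99 of the strongest decile of replicate 1, or 2.33% of it, and 254 in replicate 2, or 4.19%. In deciles 6 and 7 they supplied 21.5% and 20.8% of the peaks of replicate 1, and 20.6% and 21.4% in replicate 2. Their median width was 180 bases in both libraries. At the outer edge of the rule, members 49 to 50 kb from a coding start had median percentiles of 30.6 and 34.2, and peaks just outside, at 50 to 51 kb, 28.0 and 34.4.

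**Figure D1:**
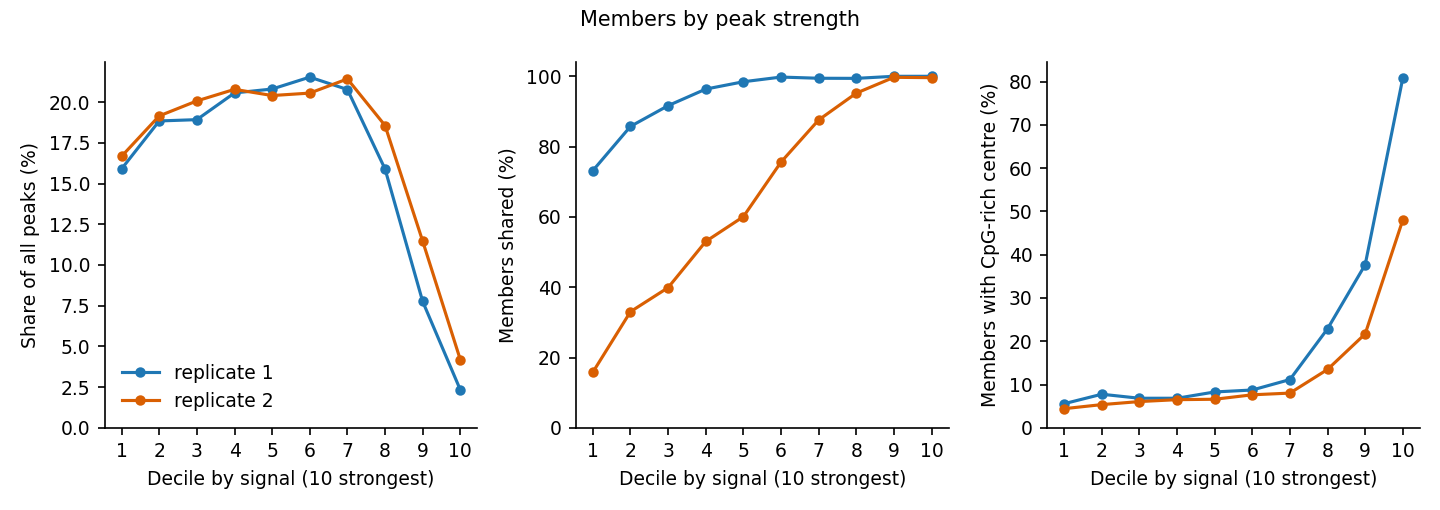
Share of all peaks that were members, share of members overlapping a peak of the other library, and share of members with a CpG-rich centre, in percent, by decile of all peaks ranked by signal within each library (decile 10 is the strongest; lines are the 2 replicates). Members made up 2.33% and 4.19% of the strongest decile, nearly all of which were shared, and CpG-rich centres rose to 80.8% and 48.0% there.

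CpG-rich centres were more frequent among the strong members. A centre was called CpG-rich if its 150 bases had at least 50% G and C and a ratio of observed to expected CpG of at least 0.6. This held for 11.9% and 9.22% of members, or 10.6% ± 1.88 (SD, n = 2), against 75.1% and 70.5% of promoter peaks, 7.98% and 6.09% of intronic peaks and 8.79% and 6.11% of far intergenic peaks. Among members in the strongest decile, 80.8% and 48.0% were CpG-rich. CpG-rich members had a median percentile of 65.1 and 64.7, and the others 41.5 and 43.4.

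Next to Pak3, the 9 shared members with the best mean rank illustrate this. All 9 had at least 54.7% G and C. The second, 22533 bases downstream of the start of Ccne1 (cyclin E, which drives entry into S phase), had signals of 15.97 and 24.83 and 70.7% G and C. The third lay 14855 bases upstream of Zfp395, a zinc finger gene, with signals of 18.5 and 22.0. Members 10031 bases upstream of Slc38a2, an amino acid transporter, with signals of 15.5 and 16.8, and 7797 bases upstream of Cirbp, a cold-inducible RNA binding protein, with 13.5 and 23.4, were of the same kind. The others lay upstream of Kcnn1 (a potassium channel), Trappc9 (vesicle transport), Fbrs and Cpeb4 (translational control), and downstream of the start of Zfp239.

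Some of these regions are starts in other annotations. The rule used the basic GENCODE vM21 set. RefSeq or the comprehensive GENCODE set placed a start within 1 kb of 655 members in replicate 1 (9.45%) and 901 in replicate 2 (8.57%). Among members in the strongest decile the share was 39.4% and 27.2%, and among those in the weakest decile 5.72% and 4.52%. RefSeq starts lay within 1 kb of the Kcnn1, Fbrs and Cpeb4 members named above and had the names of those genes, and one named Gm38882 lay within 1 kb of the Zfp239 member. Of these 655 and 901 members, 113 and 123 overlapped a tRNA gene, a short gene transcribed by RNA polymerase III. The latter were strong, with median percentiles of 72.5 and 74.2, against 43.3 and 44.8 over all members.

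Members were densest close to coding starts. Density was counted per Mb of eligible space, that is of all bases that met the rule, 439.6 Mb in the assembly. In it 15.8 members per Mb lay in replicate 1 (exact Poisson interval 15.4 to 16.2) and 23.9 in replicate 2 (23.5 to 24.4). At 1 to 5 kb from the nearest coding start there were 24.1 and 34.7 per Mb, and at 40 to 50 kb 10.4 and 17.4. The density at 1 to 5 kb exceeded that at 20 to 50 kb by a factor of 1.93 and 1.77 in the 2 libraries, a mean of 1.85 ± 0.119 (SD, n = 2). The median member lay 13912 and 14373 bases from its start. Members close to a start were also stronger, with median percentiles of 47.9 and 50.5 at 1 to 5 kb against 32.3 and 36.6 at 40 to 50 kb.

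Density differed by the side of the start. At 1 to 5 kb there were 25.6 and 36.9 members per Mb upstream, and 14.1 and 20.1 downstream in space past the end of short genes. The intervals did not overlap within either library, and the ratio was 1.82 and 1.84. At 10 to 20 kb the order was the opposite, with 15.2 and 23.2 upstream and 18.8 and 26.5 downstream, and again without overlap of the intervals. Beyond 20 kb the ratios lay between 0.825 and 0.970. Without the CpG-rich members the values at 1 to 5 kb were 21.5 and 32.3 upstream and 12.1 and 18.1 downstream.

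**Figure D2:**
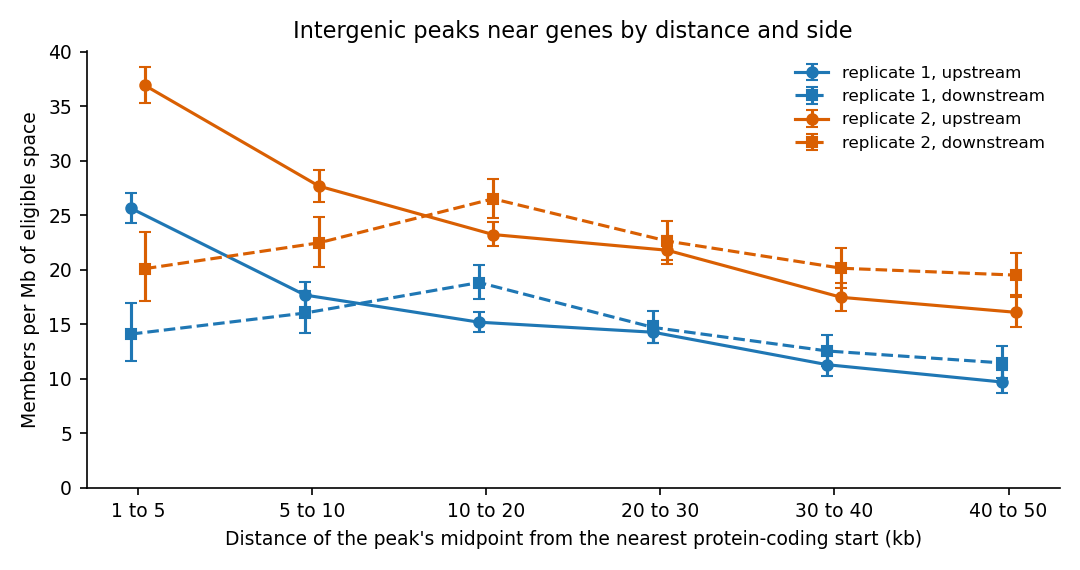
Members per Mb of eligible space (vertical axis) by distance from the nearest protein-coding start in kb (horizontal axis), for upstream (solid) and downstream (dashed) positions in each replicate, with exact Poisson 95% intervals. Upstream density fell from 25.6 and 36.9 per Mb at 1 to 5 kb to 9.71 and 16.1 at 40 to 50 kb, and downstream density was highest at 10 to 20 kb.

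Density differed by the promoter state of the nearest gene. Genes with a peak within 1 kb of one of their starts numbered 11716 and 12489 of 21938 coding genes. Their space held 26.3 (25.6 to 27.1) and 39.4 (38.6 to 40.3) members per Mb, and the space of the other genes 8.14 (7.79 to 8.50) and 10.7 (10.3 to 11.2). The ratio was 3.23 and 3.68, or 3.45 ± 0.313 (SD, n = 2). The same order was seen at 1 to 5 kb, with 41.6 against 11.2 per Mb in replicate 1 and 59.4 against 13.6 in replicate 2, and at 20 to 30 kb, with 24.5 against 6.86 and 35.6 against 10.2. Members next to open promoters were also stronger, at median percentiles of 46.2 and 47.1 against 36.0 and 37.2.

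Chromosomes differed in density. Chromosome 11 was the densest, with 29.7 and 42.4 members per Mb, against 17.3 and 26.2 over all autosomes. The X chromosome held 145 and 217 members, at 4.16 and 6.22 per Mb. Its coding genes also had fewer promoter peaks, 35.8% and 39.2% against 54.7% and 58.2% on autosomes. Its members had a median percentile of 23.1 and 24.3. In these females 4 and 3 members fell on the Y chromosome, of which 75% and 66.7% had a centre that occurs more than once in the assembly, against 2.67% and 2.71% over all members.

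Most genes with a member had 1 or few. Of all coding genes 4271 (19.5%) were nearest to at least 1 member in replicate 1 and 5279 (24.1%) in replicate 2. In replicate 1, 2737 genes had 1 member, and in replicate 2 2931 did. In replicate 1, 617 genes had 3 or more and 122 had 5 or more, and in replicate 2 1186 and 400. Within 2 kb of another peak lay 30.8% and 39.5% of members, close to the 30.5% and 39.5% of intronic peaks and above the 23.0% and 31.9% of far intergenic peaks. Up to 0.606% of members overlapped a further peak of their own list.

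The gene with most shared members was Ptma, encoding prothymosin alpha, an abundant nuclear protein of dividing cells. It had 13 members in replicate 1 and 17 in replicate 2, of which 13 were shared, nearly all upstream. The strongest in replicate 1 lay 39095 bases upstream on chromosome 1, from 86487461 to 86487800, with signals of 12.8 and 14.0. The strongest in replicate 2, 1315 bases upstream, had 10.7 and 14.8, and one 17165 bases upstream, with PU.1 and E2A motifs, had 7.93 and 9.09.

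Btg2, which restrains cell division, had 11 and 12 members, 11 of them shared. Its strongest member lay 18099 bases downstream of the start, with signals of 7.47 and 15.4. A further one 14001 bases upstream, with 6.73 and 10.1, lies in a RefSeq element that acted as an erythroid enhancer in human K562 cells. The member at 5772 bases downstream, with 1.08 and 2.03, overlaps the edge of an element that acted as an erythroid enhancer in mouse MEL cells. Both elements carry Btg2 in their names. The strongest member and 3 others of replicate 1, and 5 members of replicate 2, overlap a further RefSeq element, an enhancer of the embryonic neural tube, brain and ganglia.

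Tmem121, a membrane protein gene, had 10 members in each library and all were shared, although neither library had a peak at its promoter. They lay 30198 to 42471 bases downstream of its start. The nearest gene on their other side was Igha, the constant region gene of IgA antibodies, which is not of the protein-coding type in the annotation and ends 26429 to 38702 bases from them. The space downstream of Igha is known to hold the 3′ regulatory region of the antibody heavy chain locus. The strongest, on chromosome 12 from 113222121 to 113222320, had signals of 7.06 and 8.51, and the one from 113228281 to 113228520, with octamer and EBF motifs, had 4.03 and 7.40.

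Of the other leading genes, Psd2 had 11 and 17, Chst3, a sulphotransferase, 9 and 11, Haao, an enzyme of tryptophan breakdown, 9 and 11, Akap1, an anchor of protein kinase A, 9 and 10, and Med13, a Mediator subunit, 8 and 8.

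**Figure D3:**
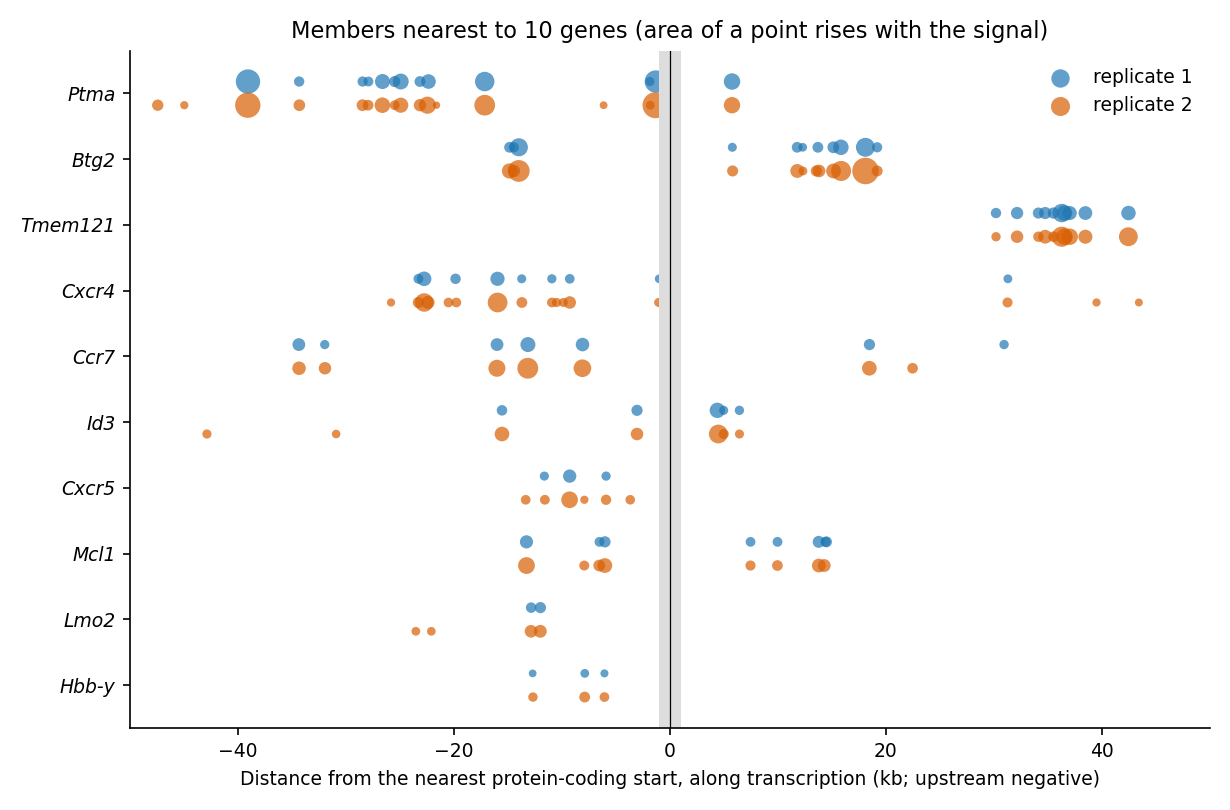
Positions of members at 10 genes by distance in kb along transcription from the nearest protein-coding start (upstream negative; the grey band is the 1 kb to either side that the rule leaves out), in replicate 1 (blue) and replicate 2 (orange), with the area of a point rising with its signal. Ptma members lay mostly upstream, those of Btg2 on both sides and those of Tmem121 30198 to 42471 bases downstream.

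Genes of the spleen's immune cells were surveyed with 19 lists of marker genes, some of which share genes. Of 24 B cell genes, 14 were nearest to a member in replicate 1 and 18 in replicate 2, shares of 58.3% and 75%, against the 19.5% and 24.1% over all coding genes. Their space of 0.353 Mb held 27 and 52 members, or 76.5 (50.4 to 111) and 147 (110 to 193) per Mb. That is 4.85 and 6.17 times the density over all coding genes, or 5.51 ± 0.928 (SD, n = 2). The median B cell gene had 1 and 2 members, and the median coding gene 0 and 0. All 24 B cell genes had promoter peaks in both libraries, and 0 of 12 hepatocyte genes did.

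Cxcr5, the receptor that guides B cells into follicles, had 3 and 6 members, all upstream. The strongest, 9294 bases upstream, had signals of 3.28 and 5.62, and those at 5922 and 11641 bases carried a PU.1 and an octamer motif. Blnk, an adaptor of the B cell receptor, had 3 and 5, and Cd22, an inhibitory receptor, 2 and 6, the strongest of them 7477 bases upstream with 3.32 and 8.12. All members of these B cell genes lay upstream, as did 72.3% and 72.6% of all members. Cd79a, which carries the signal of the B cell receptor into the cell, had 0 and 1, and Btk, a kinase of that pathway, and Cd37, a tetraspanin, had 0 in both, with 0.257 kb and 0 kb of eligible space.

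T cell genes had members at 13 and 17 of 24 genes, at 40.1 (25.7 to 59.7) and 63.6 (45.0 to 87.2) per Mb. Ccr7, the receptor that brings lymphocytes to lymphoid tissue, had 7 in each, of which 6 were shared pairs. The strongest, 13164 bases upstream, had 4.38 and 9.20. Tcf7, a T cell transcription factor, had 3 and 6, although its promoter had no peak in either library, and Il7r, the interleukin 7 receptor, 2 and 5. Cd247 and Cd3d, both parts of the T cell receptor complex, had 0 in 0.996 and 8.36 kb of eligible space. Of the 12 genes for homing and chemokine receptors, 8 and 9 had members, at 79.0 (53.3 to 113) and 158 (121 to 203) per Mb. Cxcr4, a receptor of retention in lymphoid tissue, had 9 and 16. Its member 15981 bases upstream had 3.87 and 8.15, and that at 22781 bases upstream 4.12 and 7.10. S1pr1, the receptor by which lymphocytes leave, had 6 and 16. Cxcr4, S1pr1 and Ccr7 supplied most of the 30 and 60 members of this list. The Poisson intervals do not cover such clustering of members at few genes. Ccr7 also stands in the T cell list and Cxcr5 in the B cell list, so their members count in both lists.

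Transcription factor genes of lymphocytes had members at 15 and 16 of 30 genes, at 36.7 (25.4 to 51.3) and 65.9 (50.4 to 84.6) per Mb. Id3, Id2 and Runx3 led with 5 and 7, 5 and 6, and 4 and 7. Id3 and Id2 are inhibitors of E2A, and the strongest Id3 member, 4384 bases downstream, had 4.66 and 7.34. Bcl6, the factor of germinal centre B cells, had 2 and 2, including a member 2489 bases upstream at 2.97 and 2.71. Bcl11a, Elf1 and Ikzf1 had 0 in both libraries and 0 kb of eligible space. Of factor genes outside this list, Irf4 had 2 and 4. Irf8 and Spi1, also outside it, had 0 in both libraries and 0 kb of eligible space.

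Genes of other blood lineages were counted in the same way, against the 19.5% and 24.1% with a member over all coding genes. NK and cytotoxic genes had members at 5 and 9 of 12, led by Klrb1c, an NK cell receptor, with 5 and 4. Macrophage and monocyte genes had them at 6 and 11 of 20, or 26.8 (14.6 to 44.9) and 47.8 (30.9 to 70.6) per Mb. Adgre1, encoding the F4/80 antigen, had 5 and 7, from 9450 to 23760 bases upstream in replicate 1, with signals up to 3.68 and 6.01, and no promoter peak in either library. Hmox1, the haem oxygenase, had 3 and 3 and Itgam, an integrin, 2 and 3. Dendritic cell genes had members at 4 and 5 of 12, plasma cell genes at 3 and 4 of 7, with Xbp1 at 2 and 5, and neutrophil genes at 6 and 5 of 12. Megakaryocyte genes had them at 2 and 3 of 10, and stem and progenitor genes at 3 and 3 of 8, with Myb at 1 and 2. In replicate 1 the density intervals of all these lists held the 15.8 per Mb of all coding genes. In replicate 2 those of the neutrophil, megakaryocyte and stem and progenitor lists held the 23.9 per Mb.

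Erythroid genes had members at 5 and 7 of 18, at 20.1 (7.39 to 43.8) and 36.9 (18.4 to 66.02) per Mb, intervals that hold the 15.8 and 23.9 of all coding genes. Slc4a1, the anion exchanger of red cells, had 2 and 2. Tal1, a factor of blood formation, had 1 and 2, and Tfrc, the transferrin receptor, 0 and 3. Gata1, Klf1, Gfi1b, Lyl1, Hbb-bt and Hbb-bs had 0 in both, with 16.5, 3.003, 13.5, 0.067, 15.6 and 7.56 kb of eligible space. The myeloid factor gene Cebpa and the T cell gene Cd8a also had 0, in 48.7 and 11.4 kb.

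Lists of other tissues, of vessel and stromal cells that spleen also holds, and of housekeeping genes were counted for comparison. Hepatocyte genes had members at 0 and 0 of 12 in 0.243 Mb, with an exact Poisson upper bound of 15.2 per Mb, and endothelial genes at 0 and 1 of 11. Neuron genes had them at 1 and 2 of 12, muscle genes at 2 and 4 of 12, pancreas acinar genes at 3 and 3 of 10, and stromal genes at 4 and 4 of 14. Over all coding genes the shares with a member were 19.5% and 24.1%. The density intervals of the endothelial, neuron, muscle, pancreas acinar and stromal lists held the 15.8 and 23.9 per Mb of all coding genes. Housekeeping genes had them at 7 and 8 of 14, at 100.1 (64.8 to 148) and 120.2 (81.1 to 172) per Mb, with Actb, cytoplasmic actin, at 7 and 8. The intervals overlapped those of the B cell list, and all 14 had a promoter peak. The part of promoter state in the list values was not tested.

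**Figure D4:**
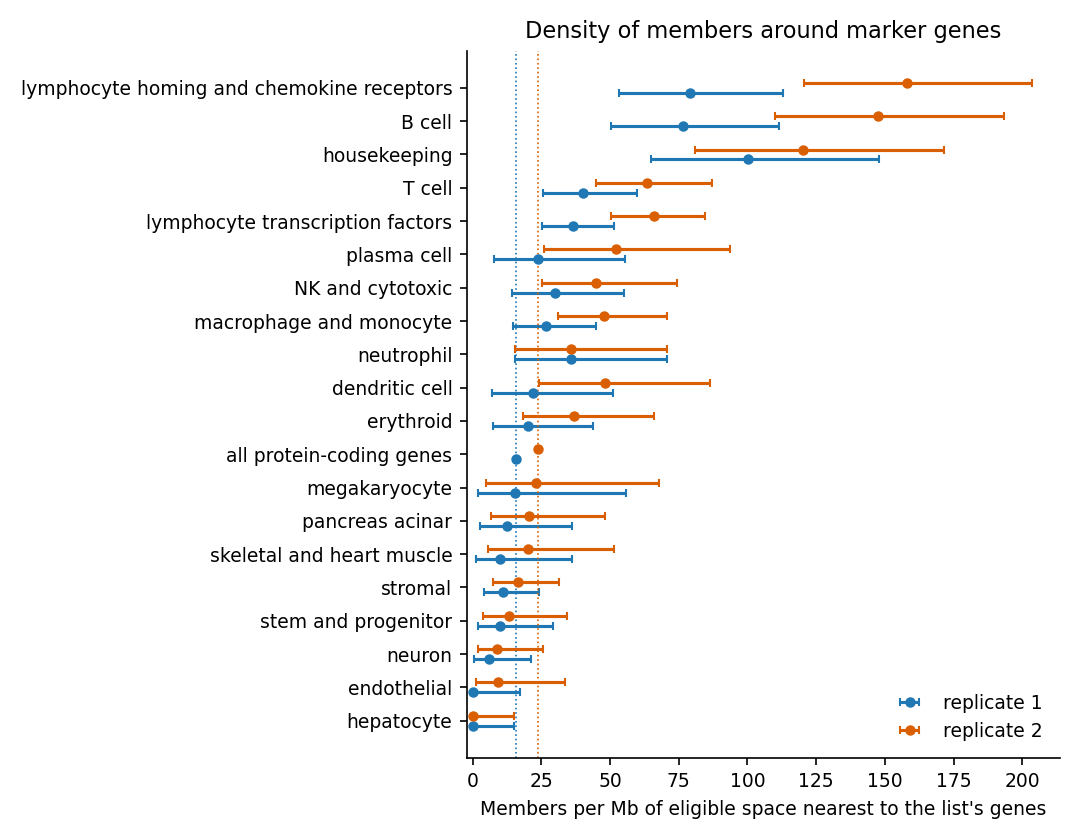
Members per Mb of eligible space nearest to the genes of each list (horizontal axis, points with exact Poisson 95% intervals, replicate 1 blue and replicate 2 orange), ordered by the mean. Dotted lines mark all coding genes, 15.8 and 23.9 per Mb. The homing receptor, B cell and housekeeping lists stood highest, and the hepatocyte list had 0.

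Some known control elements lay among the members. RefSeq lists 335 enhancers, hypersensitive sites and similar elements of mouse whose midpoint meets the same rule, and 58 of them (17.3%) overlapped a peak in replicate 1 and 76 (22.7%) in replicate 2. Counted from the members, 51 in replicate 1 (0.736%) and 75 in replicate 2 (0.714%) lay over an element. The share of other eligible space with a peak was not set beside these counts. These elements were chosen by their annotators and were looked up after the values were seen, and those named are examples with a member. In the locus control region of the beta-globin genes, which drives globin transcription in red cells, hypersensitive sites 1, 2 and 3 each held a shared member, although RefSeq records sites 1 and 2 as not seen in spleen cells. These lay 6074, 7895 and 12725 bases upstream of Hbb-y, with signals of 0.696, 0.981 and 0.591 in replicate 1 and 1.38, 1.93 and 1.26 in replicate 2. Site 4, nearest to Olfr66, held a member in replicate 2 alone, with 0.933. Nearest to Nprl3, the R4 element of the alpha-globin enhancers held a member in replicate 2 alone, at 1454 bases upstream with 1.46 and a GATA motif. No run of the cut rate track of replicate 1 lay over it.

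Members of B cell and survival genes overlapped further elements. Pax5, which maintains B cell identity, had 1 and 6 members. The shared one, 2707 bases upstream with signals of 1.84 and 1.86, overlapped a hypersensitive site that RefSeq lists as HS-1. Mcl1, which protects blood cells from apoptosis, had 8 and 8 members. Of these 3 and 4 lay in an upstream cluster that acts on Mcl1 expression in embryonic stem cells, the strongest of them at 13297 bases with 3.20 and 5.73 and PU.1 and EBF motifs. Nearest to Mrpl23, in the imprinting control region of H19 and Igf2 that binds CTCF on the maternal allele, lay 1 and 3 members, with signals between 0.472 and 0.834. The strongest member nearest to Fos, 18539 bases upstream with 8.47 and 13.1, overlaps an element that was an enhancer in embryonic heart. The kidney enhancer of Ren1 (renin) held a shared member, with 0.612 and 1.51.

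Motifs were searched on both strands in the central 150 bases. The letters were GAGGAAGT for PU.1, TGTGGTTT for RUNX, AGATAAG for GATA, ATGCAAAT for the octamer, CCCNNGGGA for EBF, CAGGTG for E2A, GGAANTGAA for ETS-IRF, TGANTCA for AP-1, CCGGAAGT for ETS, GGGGCGGGG for SP and GCGCATGCG for NRF1. The others were GAAANTGAA for ISRE, GGGANTTCC for NF-kB, TTGCNNCAA for C/EBP, CCACACCC for KLF, CCAATCA for NFY, AAGATGGCG for YY1, CTATTTTTA for MEF2, ACATCAAAG for TCF7/LEF1, CAAAGTCCA for HNF4 and GTTAATNAT for HNF1, and the longer CTCF motif is given by name alone. Matches of PU.1 and ETS-IRF can overlap each other. Flanking windows of the same length, 1 kb to either side and touching no peak, gave the background, in 13332 and 19822 windows.

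CTCF stood out most. Its motif lay in 16.4% (15.6 to 17.3) and 11.6% (10.96 to 12.18) of member centres, or 14.0% ± 3.45 (SD, n = 2), against 0.0825% and 0.0706% of flanks. It lay in 1.20% and 1.05% of promoter, 12.2% and 7.43% of intronic and 13.0% and 8.24% of far intergenic centres, with intervals that did not meet those of the members. Without CpG-rich centres the members held 17.7% and 12.1%, and intronic peaks 12.8% and 7.70%. Downstream of starts it was in 20.6% and 14.7% of members, and upstream in 14.9% and 10.4%. Under a footprint lay 89.0% (87.1 to 90.7) and 98.2% (97.3 to 98.8) of the member motifs.

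Motifs of blood cell factors were also above the flanks. PU.1 was in 5.08% (4.58 to 5.62) and 6.28% (5.83 to 6.76) of members and 1.02% and 1.01% of flanks. Intronic centres had more, 6.40% and 7.35%, and promoter centres fewer, 2.10% and 2.40%. RUNX was in 2.76% and 3.03% against 1.01% and 1.08% of flanks, and EBF in 4.15% and 4.33% against 2.02% and 2.04%. The octamer was in 1.64% and 1.75% against 0.795% and 0.762%, and E2A in 17.9% and 17.2% against 11.8% and 11.6%. ETS-IRF was in 3% and 3.81% against 2.25% and 2.22%. For RUNX, EBF, the octamer and ETS-IRF, intronic and far intergenic centres had larger shares than members in both libraries, though some intervals overlapped. RUNX was in 3.25% and 3.36% of intronic and 3.59% and 3.49% of far intergenic centres. EBF was in 4.46% and 4.77%, and 4.76% and 5.38%, and in 5.28% and 5.31% of promoter centres. E2A was slightly less frequent, in 17.2% and 16.5% of intronic and 17.7% and 16.7% of far intergenic centres. Members had more G and C than flanks, and the part of base composition in these shares was not tested.

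GATA differed between the libraries. It was in 1.75% (1.46 to 2.08) of members in replicate 1, with flanks at 1.79% (1.58 to 2.03), and in 2.83% (2.53 to 3.16) in replicate 2, with flanks at 1.87% (1.69 to 2.07). The motif stood above its flanks in replicate 2 alone, and with the strongest 20000 peaks of each library it was in 0.945% and 1.47% of members, below these flank values in both. Of the promoter motifs, SP was in 2.06% and 1.80% of members but 15.0% and 13.7% of promoter centres, and ETS in 0.865% and 0.913% but 5.15% and 4.76%. NRF1 was in 0.418% and 0.381% of members and 2.49% and 2.26% of promoter centres. Members were above their flanks for each of these, with flanks at 0.540% and 0.535% for SP and 0.150% and 0.161% for ETS. The NRF1 flanks were at 0.0225% and 0.0151%. AP-1 was in 4.80% and 5.74% of members and 4.25% and 4.15% of flanks, and C/EBP in 1.21% and 1.21% against 1.22% and 1.29%. KLF was in 2.68% and 3.04% against 1.34% and 1.43%, NF-kB in 0.894% and 1.16% against 0.488% and 0.550%, ISRE in 1.63% and 1.73% against 1.09% and 1.12%, NFY in 2.13% and 1.94% against 1.63% and 1.64%, and YY1 in 0.375% and 0.266% against 0.150% and 0.121%. MEF2 was in 0.231% and 0.343% against 0.323% and 0.318%, and TCF7/LEF1 in 0.115% and 0.181% against 0.270% and 0.237%. The liver motifs of HNF4 and HNF1 were in 0.144% and 0.200%, and 0.202% and 0.171% of members, not above their flanks at 0.225% and 0.207%, and 0.308% and 0.288%.

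**Figure D5:**
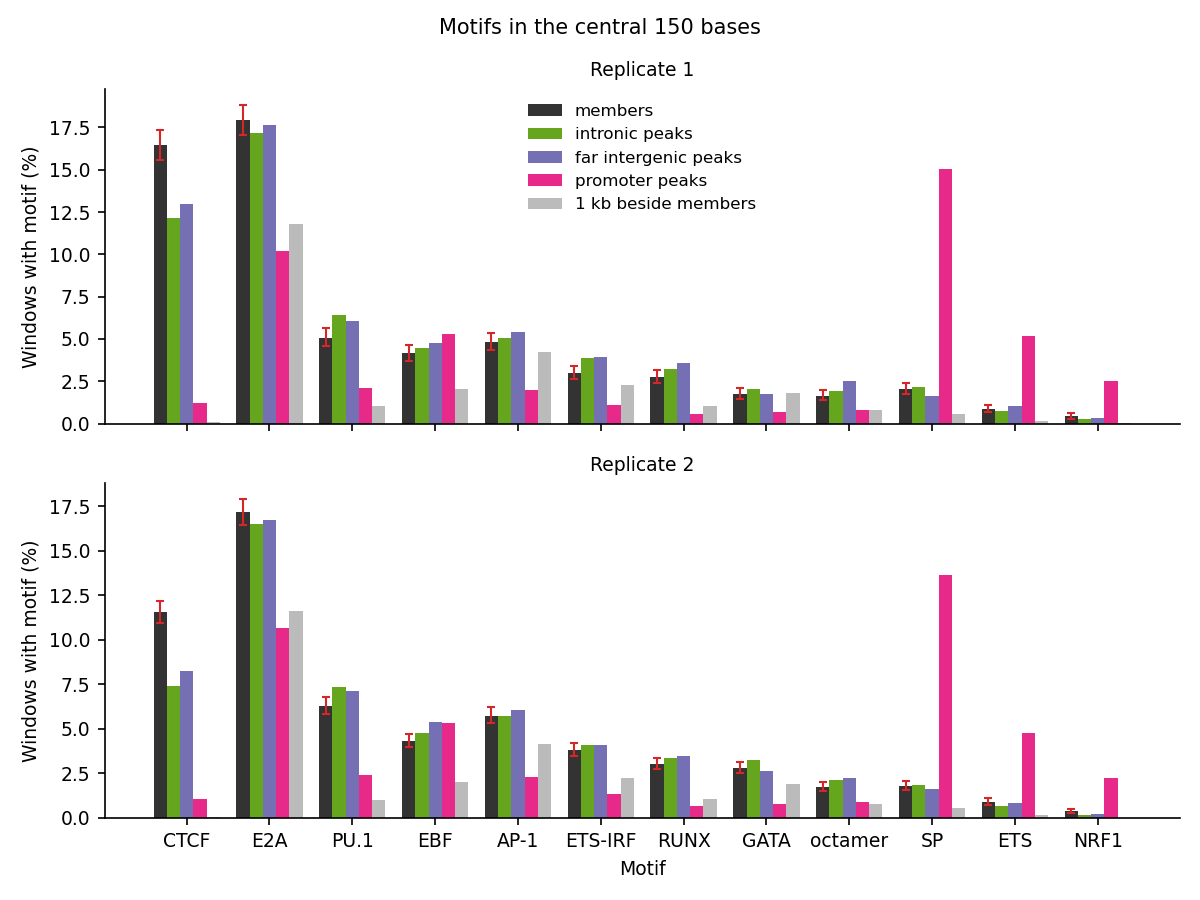
Share of central 150-base windows with a motif, in percent (vertical axis), for members, intronic, far intergenic and promoter peaks and windows 1 kb beside members, in each replicate; red bars are Wilson 95% intervals of the members. CTCF reached 16.4% and 11.6% in members and under 0.1% beside them, and SP reached 15.0% and 13.7% at promoters.

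Footprints were counted where they touched a member by at least 1 base. Members held 2.21 and 2.67 each, or 2.44 ± 0.322 (SD, n = 2), and per kb 12.6 and 15.1. Promoter peaks had 13.8 and 15.5 per kb, intronic peaks 11.7 and 14.4 and far intergenic peaks 11.2 and 14.3. No footprint touched 8.86% and 4.68% of members. PU.1 motifs lay under a footprint in 16.5% (13.0 to 20.7) and 23.3% (20.3 to 26.7) of the members that held them, GATA in 22.3% (15.8 to 30.5) and 35.0% (29.8 to 40.6), RUNX in 30.4% and 39.3%, EBF in 43.8% and 61.8% and SP in 67.1% and 73.5%. PU.1 motifs in members were thus less often footprinted than those of CTCF, whose intervals lay far above. The liver motifs lay under a footprint in 10% and 14.3% (HNF4) and 14.3% and 16.7% (HNF1), and MEF2 in 25% and 41.7%, of few members each. The share of any position in a member that lies under a footprint was not measured, so these shares do not show binding.

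The share of members found in both libraries depended on the peak lists compared. Of the members of replicate 1, 6516, or 94.0% (93.4 to 94.5), overlapped a peak of replicate 2, near the 93.8% of all peaks. Of the members of replicate 2, 6538, or 62.2% (61.3 to 63.1), overlapped one of replicate 1, against 65.7% of all peaks, 82.1% of promoter peaks, 55.9% of intronic peaks and 54.3% of far intergenic peaks. With the strongest 20000 peaks of each library, lists of equal length, 74.8% of members of replicate 1 and 81.0% of those of replicate 2 were shared, so the order of the libraries turned round. Among members, sharing rose with strength, from 73.2% and 15.8% in the weakest decile of all peaks to 100% and 99.6% in the strongest. Signals of the 6484 pairs of overlapping members were correlated, with Spearman's rho at 0.857. This describes peaks of only 2 libraries. Of these pairs 48.9% lay within 10 percentile points of each other.

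Members found in replicate 2 alone differed from the shared ones in their motifs. They numbered 3974, with a median percentile of 24.3. Of them 4.00% held a CTCF motif, against 16.2% of the shared members of that library, 7.50% a PU.1 motif against 5.54%, and 4.30% a GATA motif against 1.93%. At like strength the intervals of shared and unshared members were also apart, for CTCF and PU.1 in deciles 1 to 3, 4 to 6 and 7 to 10, and for GATA in the lower ranges but not in deciles 7 to 10. In deciles 4 to 6, CTCF was in 2.31% (1.64 to 3.25) of 1383 unshared and 18.8% (17.2 to 20.4) of 2347 shared members, PU.1 in 8.46% (7.11 to 10.04) and 5.24% (4.41 to 6.22), and GATA in 4.48% (3.51 to 5.71) and 2.00% (1.51 to 2.65). The 418 unshared members of replicate 1 had a CTCF motif in 19.4% (15.9 to 23.4), a PU.1 motif in 2.39% (1.31 to 4.35) and a GATA motif in 0.957% (0.373 to 2.43). Its shared members had 16.3% (15.4 to 17.2), 5.25% (4.73 to 5.82) and 1.80%, so PU.1 went in the opposite direction to replicate 2. Replicate 2 has the longer lists of peaks and footprints, and the part of this in the differences was not tested.

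The cut rate track of the other library showed signal at many of the members without a peak there. It gives a false discovery rate (FDR) per run of bases and lists runs under 0.05. Of the 418 members of replicate 1 without a peak in replicate 2, 372, or 89.0% (85.6 to 91.7), held such a run in replicate 2. Of the 3974 of replicate 2 without one in replicate 1, 2195, or 55.2% (53.7 to 56.8), held one in replicate 1, and 1444 (36.3%) held one of at most 0.01. For unshared promoter peaks the shares were 94.1% and 74.3%, and for unshared intronic peaks 85.6% and 54.2%. Runs of at most 0.001 in the other library lay at 106 (25.4%) and 330 (8.30%) of the unshared members. Every peak of the lists used held a run of that level in its own library. With the longer peak lists the shares of unshared members with a run were 23.8% and 8.05%, and the share of windows outside peaks with a run was not measured.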

How the data were processed

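Per the readme deposited with each library, the authors derived peaks, footprints and the cut rate track from the alignments of that library on mm10, without pooling replicates. The aligner, and the tools that called peaks and footprints, are not given in the sources used. Each deposited peak carries the authors' signal value, whose scale is not stated and which served only within a library. Deposited footprints carry an FDR (q-value) of 0.01, and the deposited cut rate track lists runs with an FDR (q-value) under 0.05. The shorter of the 2 deposited peak lists was used, in which every peak held a run of at most 0.001. The members, gene lists and motifs were chosen with earlier results of these data known.

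Genes came from the basic GENCODE vM21 annotation, sequence from GRCm38 and control elements and tRNA genes from RefSeq. Members were found by midpoint, and peaks were shared if they overlapped by at least 1 base. Motifs were searched in the central 150 bases, and a motif was under a footprint if it lay inside one widened by 5 bases. Shares have 95% Wilson intervals and densities exact Poisson intervals. Classification, space, overlap and motif code was tested on simulated data. Python 3.11.15, numpy 2.4.6, pandas 2.3.3, scipy 1.17.1 and matplotlib 3.10.9 were used.

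The genes named were, by rule, those nearest to the 10 strongest shared members, the 10 with most shared members, up to 3 with most and 2 with no member per list, 20 landmark genes and those of the printed sequences. From this rule the text gives examples. Values of 2 genes that the rule names are not reported here. Genes at RefSeq elements, and in the closing section those at blocks of weak peaks, were chosen after their values were seen. Alternatives were the longer lists, the strongest 20000 peaks, coding gene bodies only, a limit of 25 kb, a margin of 2 kb, whole peaks, other windows and overlaps, further start sites, and repeated centres left out.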

Additional observations from a re-analysis of the deposited data

How the results depend on the processing

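No paired analysis was possible because the libraries form 1 group. Of 94 values of 11 results under alternatives, 62 moved by less than 1 SD between the replicates and 32 by more. With 2 libraries that SD is itself uncertain. A change of direction was defined only for the density ratios by distance, side and promoter state, and 0 of these changed direction. The 94 values are means over the libraries. The mean share of members found in both libraries was 77.9% with the strongest 20000 peaks, against 78.1%, while the order of the libraries turned round, to 74.8% and 81.0%. The member share of 16.8% became 12.7% with the strongest 20000 peaks, 19.0% with coding gene bodies only, 12.1% under 25 kb, 15.2% with a 2 kb margin and 15.3% with further start sites. The median percentile of 44.0 became 48.0 with the longer lists, 30.96 with the strongest 20000 peaks, 46.6 under 25 kb and 42.9 with further starts. The ratio of near to distant density of 1.85 became 1.70, 2.57, 1.63 and 1.64 with the longer lists, the strongest 20000 peaks, 25 kb and the 2 kb margin. The upstream to downstream ratio at 1 to 5 kb of 1.83 became 1.77 with the longer lists, 1.62 with the strongest 20000 peaks, 1.76 with coding bodies, 1.71 with the 2 kb margin, 1.74 with whole peaks and 1.78 with further starts. The ratio by promoter state of 3.45 became 3.11 with the longer lists and 4.76 with the strongest 20000 peaks. With the latter, B cell genes with a member made up 54.2% in place of 66.7%. PU.1 fell to 4.38% in the central 100 bases. Footprints per member were 2.04 with the longer lists and 3.27 with the strongest 20000 peaks. Mean G and C was 52.3% and 55.1% with these, 53.9% and 51.9% in the central 100 and 200 bases, and 52.5% with further starts. Runs in the other library lay at 15.9% of unshared members of the longer lists and 99.1% with the strongest 20000 peaks, against 72.1%. Further start sites and repeated centres were chosen after seeing the data.

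Leaving out 1 of 2 libraries returns the values of the other, so it tests nothing further. Member shares ranged from 16.3% to 17.3%, sharing from 62.2% to 94.0% and median percentiles from 43.3 to 44.8. Density ratios were 1.77 to 1.93 by distance, 1.82 to 1.84 by side and 3.23 to 3.68 by promoter state. B cell genes with a member made up 58.3% to 75%, and PU.1 was in 5.08% to 6.28% of members. Footprints per member were 2.21 to 2.67, G and C 52.6% to 53.0% and runs at 55.2% to 89.0%. Depth, which is unknown, limits what a missing peak in replicate 1 can show.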

Other observations

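The libraries differed most at a handful of genes. In replicate 2 Lbx1, a developmental homeobox gene, had 22 members against 2 in replicate 1, Ptgis, a prostacyclin synthase gene, 21 against 1, and Zfp36l2, an RNA decay factor gene, 18 against 4. Of these, 18, 18 and 9 were in the weakest hundredth of the peaks of replicate 2. They formed blocks, 15.1 kb long near Lbx1, 13.1 kb near Ptgis and 15.9 kb near Zfp36l2, with signals of 0.0923 to 0.282, 0.103 to 0.261 and 0.174 to 0.308. Further blocks of 11 such members lay near Dock3 and Tmem72. At all 5 genes 0 of these members overlapped a peak of replicate 1 and 0 held a run of its cut rate track. Of the 138 members of replicate 2 in its weakest hundredth 67, or 48.6%, lay at these 5 genes, and 4 were shared. In replicate 1 the weakest hundredth held 42 members at 40 genes, of which 19 were shared. The count of members at these genes in replicate 2 rests on such peaks, and their origin was not tested. Il21r, encoding the interleukin 21 receptor, had 16 against 3 members with 0 in the weakest hundredth. Over all coding genes 2524 had more members in replicate 2 and 286 more in replicate 1.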
